A study of Homo sapiens with 8 samples.

Results

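Collagen chains are the 44 genes whose annotated symbol has the form COL, number, A, number. They were chosen by that symbol, not by any measured value, and are read by 66 of the 31993 named probes of the array. All 44 were measured, among 21524 genes in all, and no filter on low values was applied. The data are 8 one-color Agilent arrays of total RNA from NGP, an established human neuroblastoma line that was transduced by lentivirus and selected with puromycin. The labels put 4 arrays in a mock group, which received a mock construct, and 4 in a group that received CFC1 cDNA. Cells of both groups were grown in the same medium with serum. The labels do not state the promoter that drives CFC1, the clonality of the cells or whether samples came from separate cultures, so the variation behind each p-value is that among the 8 arrays and could be technical. The question is how CFC1, a membrane-bound co-receptor for Nodal and related TGF-beta family ligands, affects the transcripts of this line.

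Collagens are built from 3 chains that wind into a triple helix, some from identical chains and others from chains of different genes. Fibrillar collagens form the cross-striated fibres of connective tissue, and type IV collagens form the sheet of basement membranes. FACITs, the fibril-associated collagens with interrupted triple helices, decorate fibrils, while transmembrane collagens sit in the cell surface and can be shed. In neuroblastoma tissue, collagens are usually discussed as products of the Schwannian and fibroblastic stroma, and mesenchymal tumour cells can make them too. In bulk RNA, fewer cells of a type and less RNA per cell cannot be told apart.

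Each deposited value is a log2 difference from an unstated baseline of its own probe. It compares arrays for 1 probe and gives no level of expression, so chains cannot be ranked by abundance. Differences below are arrays labelled CFC1 minus mock arrays, for the mean of a gene's probes, with n = 4 in each group. A gene was called when its Benjamini-Hochberg adjusted p from limma, over all 21524 genes, was under 0.05. The CFC1 probe itself read 0.47, 1.10, 0.12 and -0.03 in mock replicates 1 to 4 and 0.06, -0.69, -0.59 and -0.30 in replicates 1 to 4 labelled CFC1. It was thus not higher in the second group but called lower (-0.80, SE 0.28, limma adjusted p = 0.0398). The groups overlapped, and the exact permutation p was 0.0571. Where this probe lies relative to the transduced cDNA is unknown. All directions therefore rest on the labels. Array medians ran from -0.144 to 0.138, with mock replicate 4 the highest.

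All 3 pairs of type IV collagen genes are arranged head to head, which is why the stretches between their start sites are shown. RefSeq promoter windows (build GRCh38.p14) were found for 32 of the 44 genes. COL4A1 and COL4A2 start 126 bases apart on chromosome 13, COL4A4 and COL4A3 418 bases apart on chromosome 2, and COL4A6 and COL4A5 379 bases apart on chromosome X. Capitals mark matches of motif letters on either strand. The CCAAT box was searched as CCAAT. For the GC box the letters were GGGCGG. The TATA box was searched as TATAAA, and the motifs do not overlap in these runs. The first run is the whole interval between COL4A1 and COL4A2, chr13:110307158-110307283, on the plus strand. The others are the 250 bases before the start of COL4A4 (chr2:227164206-227164455, minus strand) and of COL4A6 (chrX:108439459-108439708, minus strand), each the chain of its pair that was called.
COL4A1-COL4A2 interval: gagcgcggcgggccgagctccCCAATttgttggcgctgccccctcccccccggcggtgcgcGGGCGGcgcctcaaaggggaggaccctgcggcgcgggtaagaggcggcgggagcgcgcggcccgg
COL4A4 upstream: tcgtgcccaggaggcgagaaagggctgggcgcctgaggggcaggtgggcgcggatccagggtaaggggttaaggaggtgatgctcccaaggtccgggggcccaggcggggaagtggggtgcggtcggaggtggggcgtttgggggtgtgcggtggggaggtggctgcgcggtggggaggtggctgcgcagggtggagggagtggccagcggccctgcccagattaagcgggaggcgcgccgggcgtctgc
COL4A6 upstream: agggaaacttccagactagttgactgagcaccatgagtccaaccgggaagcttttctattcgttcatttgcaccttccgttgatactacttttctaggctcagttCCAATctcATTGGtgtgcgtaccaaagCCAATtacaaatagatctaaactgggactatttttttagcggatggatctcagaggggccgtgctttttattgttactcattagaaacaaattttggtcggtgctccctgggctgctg

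The COL4A1-COL4A2 interval holds 1 CCAAT box and 1 GC box and is 80.2% G and C. Of 35116 windows of that length just before RefSeq start sites, 21.1% hold a CCAAT box and 34.6% a GC box. The COL4A4 run is 72.8% G and C with no match to any of the 3 motifs, and the COL4A6 run is 44.0% G and C with 3 CCAAT boxes. In 250-base windows the shares with a match are 32.0% for the CCAAT box, 42.6% for the GC box and 10.7% for the TATA box. A match of letters is a description and not evidence of a bound factor.

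Another 2 upstream runs are shown for genes whose probes moved clearly, COL6A6 downward (chr3:130516927-130517176, plus strand) and COL13A1 upward (chr10:69801656-69801905, plus strand).
COL6A6 upstream: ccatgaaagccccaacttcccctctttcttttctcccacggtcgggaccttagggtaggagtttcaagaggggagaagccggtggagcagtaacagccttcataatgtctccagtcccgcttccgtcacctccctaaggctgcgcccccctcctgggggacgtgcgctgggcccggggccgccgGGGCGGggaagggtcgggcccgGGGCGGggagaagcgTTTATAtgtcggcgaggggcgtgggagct
COL13A1 upstream: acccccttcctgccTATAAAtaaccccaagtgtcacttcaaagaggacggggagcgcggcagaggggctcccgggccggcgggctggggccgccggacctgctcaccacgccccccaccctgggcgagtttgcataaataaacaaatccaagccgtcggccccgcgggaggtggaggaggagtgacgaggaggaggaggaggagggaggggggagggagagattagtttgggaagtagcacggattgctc

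The COL6A6 run has 2 GC boxes and a match to the TATA box letters 29 to 24 bases before the start site. That match is on the strand opposite to the gene, so TATAAA does not read in the direction of transcription. In the COL13A1 run the single TATA box match is on the gene's own strand and lies 236 to 231 bases before the start site.

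Most called collagens had lower values in the group labelled CFC1. Of the 44, 24 fell, 5 rose and 15 were not called by limma. That is 54.5% lower and 11.4% higher, where 28.2% of all genes tested were lower and 29.7% were higher. Called genes of either direction made up 65.9% of the collagens and 57.9% of all genes. The median difference was -0.67 over the collagens and -0.09 over all genes. At least 2-fold falls were found for 14 collagens (31.8%, against 8.97% of all genes) and at least 2-fold rises for 4 (9.09%, against 9.71%). The groups did not overlap for 28 collagens (63.6%, against 56.5% of all genes). Of the 29 called genes, 22 had a mean closer to the baseline in the arrays labelled CFC1 than in the mock arrays. The baseline is unstated, so this does not show which group changed.

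**Figure D1:**
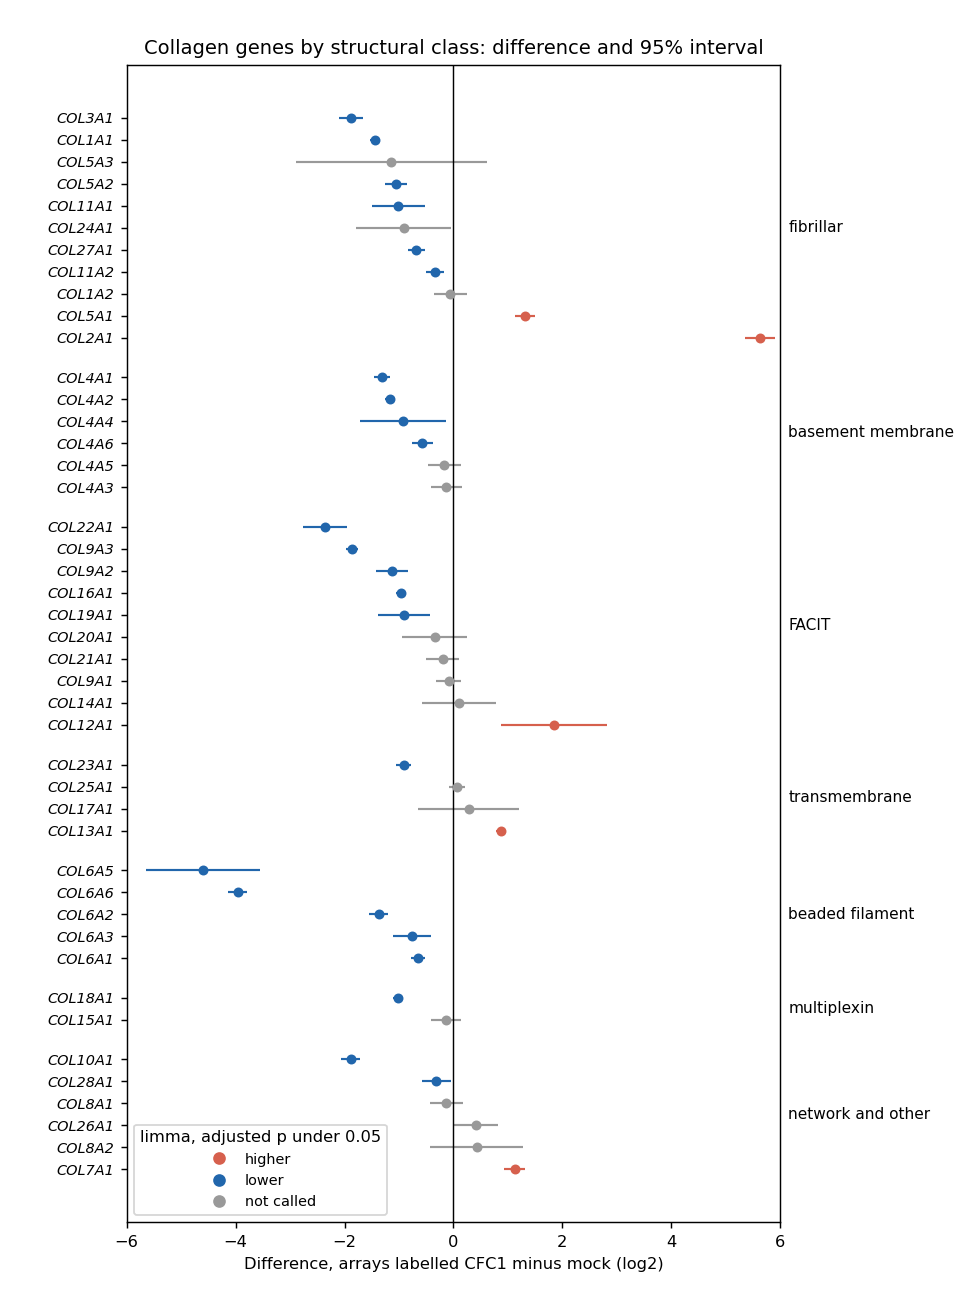
Difference between arrays labelled CFC1 and mock arrays (log2, x axis) for each of the 44 collagen genes, grouped by structural class, with limma's 95% interval (n = 4 per group). Lower genes outnumber higher ones in the fibrillar, basement membrane, FACIT and beaded filament classes, and COL2A1 stands far to the right at 5.64.

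Among 11 fibrillar chains, 6 fell (54.5%), 2 rose (18.2%) and 3 were not called, with a median of -0.92. Of all genes, 28.2% were lower and 29.7% higher. COL2A1, the chain of cartilage type II collagen, had the largest rise of any collagen. Its mock replicates 1 to 4 read -5.12, -4.78, -5.20 and -4.74, and the replicates labelled CFC1 read 0.56, 0.71, 0.78 and 0.64. Every array of the second group lay more than the whole spread of either group above the mock arrays. The difference was 5.64 (SE 0.12, limma adjusted p = 1.31e-08), a fitted 49.7-fold. After quantile normalization the difference was smaller, 4.42. Since the table gives no background flag, how near the mock arrays were to background is unknown.

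COL3A1, the chain of type III collagen in distensible tissues, moved the other way. It read 2.05, 2.04, 2.06 and 2.17 in the mock arrays and 0, 0.11, 0.27 and 0.41 in those labelled CFC1. The groups did not overlap, and the difference was -1.88 (SE 0.09, limma adjusted p = 9.32e-07). COL5A2, a chain of the type V collagen that nucleates fibrils and the neighbour of COL3A1 on chromosome 2, fell by 1.06 (SE 0.09). After quantile normalization these falls were smaller, -1.25 for COL3A1 and -0.57 for COL5A2.

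The probes of the partner chains of type I collagen did not move together. COL1A1 read 1.47, 1.54, 1.52 and 1.46 in the mock arrays and 0.08, 0.10, 0 and 0.05 in the others. This was a difference of -1.44 (SE 0.04, limma adjusted p = 3.21e-08) with no overlap, or of -0.98 after quantile normalization. COL1A2, the other chain of the same trimer, stood at -0.05 (95% interval -0.35 to 0.24, limma adjusted p = 0.731), and its groups overlapped. Its arrays ran from -0.22 to 0.24 in the mock group and from -0.31 to 0.11 in the other. A 1.44 unit fall like that of COL1A1 lies outside the COL1A2 interval. COL1A2 has 1 probe and no background flag, so how near it read to background is unknown. A flat reading thus need not mean a steady transcript.

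COL5A1, another type V chain, averaged -1.01 ± 0.15 (SD, n = 4) in mock and 0.31 ± 0.06 (SD, n = 4) in arrays labelled CFC1. The mock arrays read -1.07, -0.84, -1.19 and -0.94 and the others 0.22, 0.36, 0.35 and 0.33. The mean of its 3 probes thus rose by 1.32 (SE 0.08, limma adjusted p = 2.84e-06), but the probes differed in direction. The 2 annotated to a RefSeq transcript rose by 2.38 and 2.03, while the one annotated to an Ensembl transcript fell by 0.44, all called.

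The remaining fibrillar chains differed less. COL11A1, a type XI chain, fell by 1.02 (SE 0.21), and mock replicate 4 at 0.002 lay apart from the other mock arrays, which read 0.80 to 0.91. COL27A1 fell by 0.68 and COL11A2 by 0.34, and each has 1 probe of 3 that was not called. For COL27A1 that probe stood at 0.12, and the fall of the gene was 0.45 after quantile normalization. COL24A1 (-0.92, adjusted p = 0.0706 in limma) and COL5A3 (-1.14, limma adjusted p = 0.242) were not called. In COL5A3, mock replicate 4 read 3.02 and the other mock arrays -0.45 to 0.62. COL24A1 was called without mock replicate 2 (-1.11, adjusted p = 0.0474 in limma) or CFC1 replicate 1 (-1.20, adjusted p = 0.0153 in limma).

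**Figure D2:**
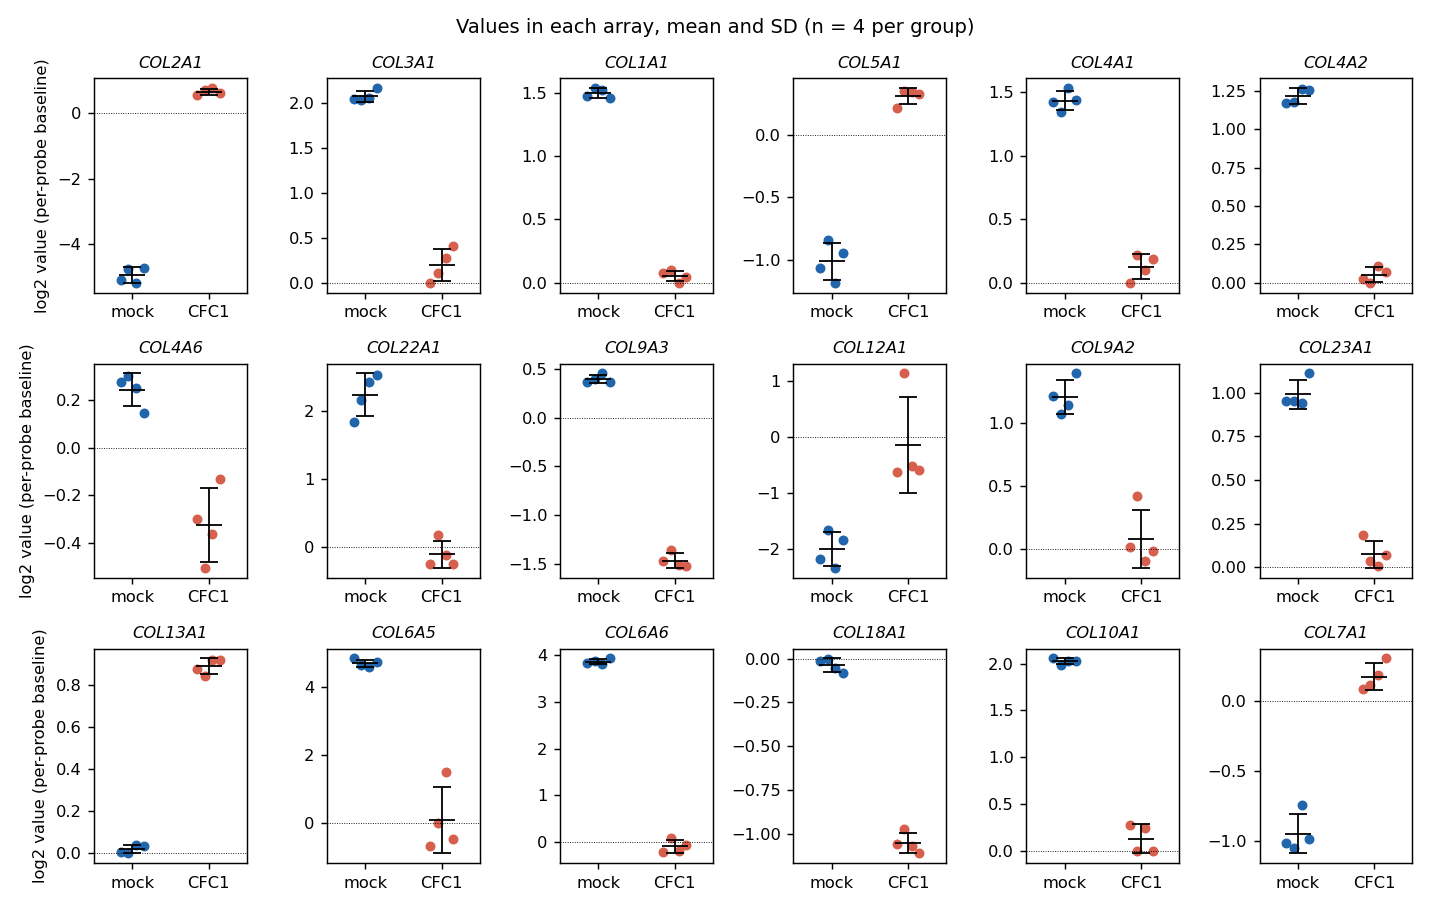
Values of each array (log2, relative to the baseline of each probe, y axis on its own scale in every panel) for the 18 collagen genes shown by array, with the group mean and SD (n = 4 per group). The groups are separate in every panel, and the arrays labelled CFC1 lie nearer 0 than the mock arrays for COL2A1, COL3A1 and COL10A1 but not for COL9A3, COL13A1 or COL18A1.

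Basement membrane chains fell or were not called, and all 6 differences were below 0. Of the 6 type IV genes 4 fell (66.7%, against 28.2% of all genes), with a median of -0.75. COL4A1 read 1.42, 1.34, 1.53 and 1.44 in mock and 0, 0.22, 0.10 and 0.19 in arrays labelled CFC1. COL4A2 read 1.17, 1.18, 1.26 and 1.26 in mock and 0.03, 0, 0.11 and 0.07 in the others. These chains form the ubiquitous type IV network together, and neither had overlapping groups. They fell by 1.31 (SE 0.06, limma adjusted p = 9.04e-07) and by 1.17 (SE 0.04, limma adjusted p = 1.8e-07), or by 0.80 and 0.75 after quantile normalization.

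The other type IV pairs, whose chains have narrower tissue ranges such as the kidney glomerulus, differed less. COL4A6 read 0.28, 0.30, 0.25 and 0.15 in mock and -0.30, -0.51, -0.36 and -0.13 in the others, a fall of 0.57 (SE 0.08). Its 2 probes stood at -0.99, called, and at -0.15, not called. COL4A5 at -0.16 and COL4A3 at -0.13 were not called (limma adjusted p = 0.321 and 0.398). COL4A4 fell by 0.93 (SE 0.33, limma adjusted p = 0.0458), though mock replicate 2 at -0.02 lay within the other group. That call was lost without mock replicate 1, 3 or 4 or without CFC1 replicate 1, 3 or 4 (adjusted p 0.0915 to 0.108), and under quantile normalization (-0.65, adjusted p = 0.117).

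Of 10 FACITs, 5 fell, 1 rose and 4 were not called, with a median of -0.62. COL22A1, a collagen of tissue junctions such as that between muscle and tendon, read 1.84, 2.17, 2.44 and 2.55 in mock and -0.26, 0.17, -0.12 and -0.26 in the others. This was the largest fall among FACITs, -2.36 (SE 0.17, limma adjusted p = 9.49e-06). COL9A3, a type IX chain of cartilage fibrils, read 0.36, 0.40, 0.45 and 0.36 in mock and -1.47, -1.36, -1.52 and -1.52 in the others. Here the arrays labelled CFC1 lay away from the baseline and the mock arrays near it. The difference was -1.86 (SE 0.05, limma adjusted p = 3.4e-08), and -2.85 after quantile normalization.

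The other type IX chains were less clear. COL9A2 read 1.21, 1.07, 1.14 and 1.39 in mock and 0.01, 0.42, -0.10 and -0.02 in the others, a fall of 1.12 (SE 0.12). One of its 2 probes fell by 2.47, and the other stood at 0.22, not called. COL9A1 stood at -0.09 (limma adjusted p = 0.486). Thus of the 3 chains that form type IX collagen, 2 fell and 1 was not called.

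COL12A1, a FACIT that links fibrils in dense connective tissue, was the only FACIT called higher. It read -2.17, -1.65, -2.34 and -1.84 in mock and -0.62, 1.14, -0.52 and -0.58 in the others, a difference of 1.86 (SE 0.42, limma adjusted p = 0.00558). The groups did not overlap, but the 2 probes differed. One rose by 3.46, with mock arrays from -4.19 to -3.69. The other stood at 0.26 (limma adjusted p = 0.767) and read 2.28 in CFC1 replicate 2 alone among values of -0.57 to 0.76. The call was lost after quantile normalization (1.21, limma adjusted p = 0.0854).

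COL16A1 fell by 0.96 (SE 0.04) as the mean of opposite probes, 1 that fell by 2.14 and 1 that rose by 0.22, both called. After quantile normalization it fell by 0.62. COL19A1 fell by 0.90 (SE 0.20), with 1 of 3 probes called at -1.63. COL20A1 (-0.34), COL21A1 (-0.20) and COL14A1 (0.10) were not called. COL14A1 has 1 probe of 2 called, at -0.52, and the other stood at 0.72. COL20A1 has 1 probe of 3 called, at -0.67.

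**Figure D3:**
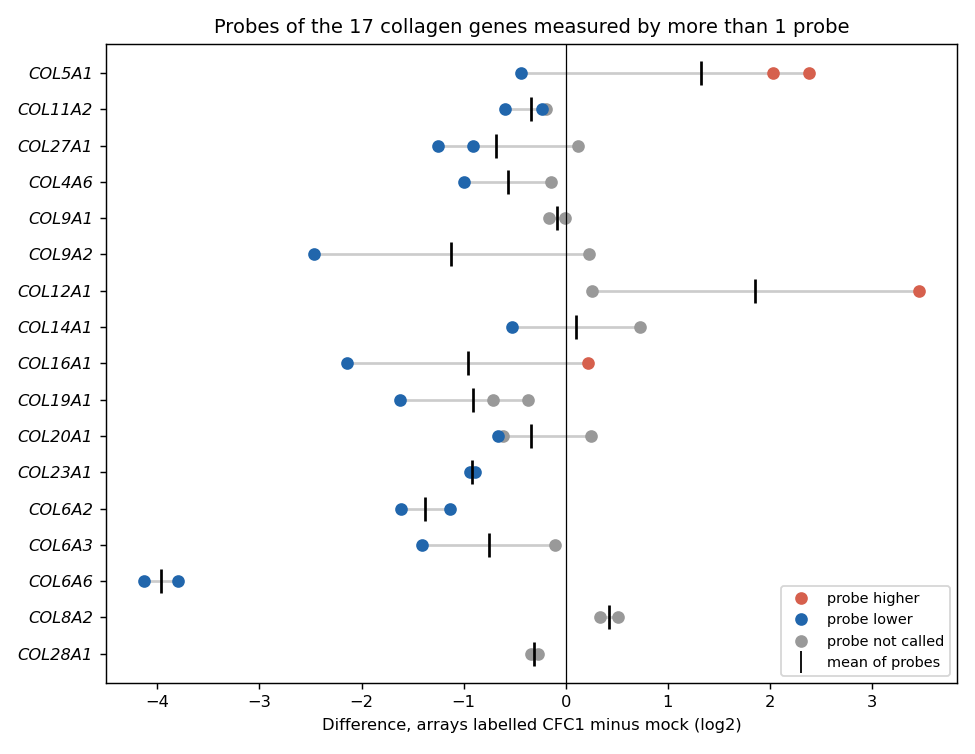
Difference of each probe (log2, x axis) for the 17 collagen genes with more than 1 probe, and the mean of probes used as the value of the gene. The probes of COL23A1 and COL6A6 lie close together, and those of COL5A1, COL9A2, COL12A1 and COL16A1 lie more than 2 log2 units apart.

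Disagreement between probes was common. Of 17 genes with several probes, 8 had probes more than 1 log2 unit apart, and for 2, COL5A1 and COL16A1, probes were called in opposite directions. Counting a gene only if every probe of it was called the same way left 19 of the 29 called collagens, 3 higher and 16 lower. Of these 19, 16 have a single probe and pass by construction. Of the 13 called collagens with several probes, 3 passed (COL23A1, COL6A2 and COL6A6) and 10 did not. The 3 higher were COL2A1, COL7A1 and COL13A1. Which part of a transcript each probe reads was not determined.

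Of 4 transmembrane collagens 1 rose, 1 fell and 2 were not called, and no called difference reached 2-fold. The share of 25.0% in each direction was near the 29.7% higher and 28.2% lower of all genes. COL13A1, found at cell adhesion sites and at the neuromuscular junction, read 0.001, 0, 0.04 and 0.03 in mock and 0.87, 0.84, 0.92 and 0.92 in arrays labelled CFC1. It rose by 0.87 (SE 0.03, limma adjusted p = 2.43e-07), or by 1.29 after quantile normalization. COL23A1 read 0.95, 0.95, 0.94 and 1.11 in mock and 0.18, 0.04, 0.01 and 0.07 in the others. It fell by 0.92 (SE 0.06, limma adjusted p = 3.95e-06), or by 0.53 after quantile normalization, and its 2 probes gave -0.94 and -0.89.

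COL17A1, of epithelial hemidesmosomes, stood at 0.28 (95% interval -0.65 to 1.21) and COL25A1, a neuronal collagen also known from amyloid plaques, at 0.07 (95% interval -0.07 to 0.21). Neither was called. The COL25A1 interval holds no change as large as that of either called member of its class. For COL17A1 the arrays labelled CFC1 ran from -0.45 to 1.41, and its interval extends past a 2-fold rise.

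Type VI chains, which form beaded filaments around cells, all fell. The median over the 5 genes was -1.37, and 28.2% of all genes were lower. COL6A5 read 4.83, 4.64, 4.59 and 4.72 in mock and -0.66, 0, 1.495 and -0.46 in the others. COL6A6 read 3.83, 3.87, 3.82 and 3.93 in mock and -0.22, 0.08, -0.21 and -0.06 in the others. They had the largest falls of all collagens, -4.60 (SE 0.45, limma adjusted p = 4.96e-05) and -3.96 (SE 0.07, limma adjusted p = 7.94e-09), or 24.2-fold and 15.6-fold as fitted. Both chains can take the place of COL6A3 in the type VI trimer, and both genes lie on chromosome 3. Replicate 3 labelled CFC1 was the highest of its group for COL6A5.

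The common type VI chains fell less. COL6A2 fell by 1.37 (SE 0.07), COL6A3 by 0.76 (SE 0.15) and COL6A1 by 0.66 (SE 0.05), all called and without overlap. Of the 2 COL6A3 probes, 1 fell by 1.41, and the other stood at -0.11 and was not called. Fibroblasts are a usual source of these chains.

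The remaining classes were mixed, with 1 of 2 multiplexins lower and, of 6 network and other chains, 1 higher (16.7%) and 2 lower (33.3%). Of all genes, 29.7% were higher and 28.2% lower. COL18A1, a multiplexin of basement membranes that releases endostatin, read -0.01, 0, -0.06 and -0.08 in mock and -1.06, -0.97, -1.07 and -1.11 in the others. It fell by 1.01 (SE 0.04, limma adjusted p = 3.55e-07), or by 1.57 after quantile normalization, and COL15A1, the other multiplexin, was not called (-0.14, limma adjusted p = 0.355). COL10A1, a network collagen of hypertrophic cartilage, read 2.05, 1.98, 2.03 and 2.03 in mock and 0.28, 0, 0.25 and 0.01 in the others, a difference of -1.89 (SE 0.08, limma adjusted p = 3.41e-07).

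COL7A1, the chain of anchoring fibrils, read -1.02, -1.05, -0.75 and -0.99 in mock and 0.09, 0.12, 0.19 and 0.31 in arrays labelled CFC1. It rose by 1.13 (SE 0.08, limma adjusted p = 8.86e-06). COL8A1 (-0.13), COL8A2 (0.43) and COL26A1 (0.42, limma adjusted p = 0.072) were not called. COL26A1 was called without mock replicate 2 (0.56, limma adjusted p = 0.0117) or CFC1 replicate 1 (0.51, limma adjusted p = 0.0463). COL28A1 fell by 0.31 (limma adjusted p = 0.045), a call lost without any single array other than CFC1 replicate 1 (limma adjusted p 0.0594 to 0.108), while neither of its 2 probes was called by itself.

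Of the 15 collagens that were not called, 11 had a 95% interval inside -1 to 1 and 7 inside -0.5 to 0.5. Without a background flag, how near these probes read to background is unknown, so a narrow interval need not mean an unchanged transcript. COL4A3, COL4A5, COL8A1 and COL15A1 read 0.22 to 0.25 in mock replicate 4 and -0.41 to -0.36 in CFC1 replicate 2. Genes outside the collagens, such as TIE1, FAP and MMP13, read much the same there (0.23 to 0.31 and -0.42 to -0.33). Whether this shared profile is a floor of the arrays was not tested. Mock replicate 4, the array with the highest median, was the highest of the 8 arrays for 9 of the 15. The part of that array shift in these values was not tested.

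Chains that assemble together or lie side by side were compared within each array, as the first gene minus the second. Of 12 pairs, 6 had groups that did not overlap, each with an exact two-sided permutation p of 0.0286, the smallest the 70 arrangements allow. Adjusted over the 12 pairs this p was 0.0572, so 0 pairs passed by the exact permutation test, and 7 pairs at the smallest p would have been needed. By limma on the same pair differences, chosen after seeing the data, 9 of the 12 passed.

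COL1A1 minus COL1A2 was 1.55 ± 0.23 (SD, n = 4) in mock and 0.17 ± 0.22 (SD, n = 4) in the others, a difference of -1.39 (limma adjusted p = 5.36e-05). How near the COL1A2 probe read to background is unknown. COL5A1 minus COL5A2 differed by 2.38, though COL5A1 has opposing probes. After quantile normalization this difference was 1.89, and that of COL9A2 minus COL9A3, 0.74 on the values as deposited, was 2.08. COL6A1 minus COL6A2, which lie next to each other on chromosome 21, differed by 0.72, from -0.21 to -0.19 in mock to values between 0.38 and 0.59 in the others, or by 1.12 after quantile normalization.

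COL4A1 minus COL4A2, the pair with the 126-base interval, was 0.22 ± 0.05 (SD, n = 4) in mock and 0.08 ± 0.12 (SD, n = 4) in the others. The difference of -0.14 had a 95% interval of -0.35 to 0.06 in limma, and the groups overlapped. COL4A3 minus COL4A4 differed by 0.80 (95% interval 0.09 to 1.51) and COL4A5 minus COL4A6 by 0.41 (95% interval 0.09 to 0.72), both with overlapping groups. How near the COL4A3 and COL4A5 probes read to background is unknown. COL6A1 minus COL6A3 differed by 0.10 (95% interval -0.24 to 0.44).

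**Figure D4:**
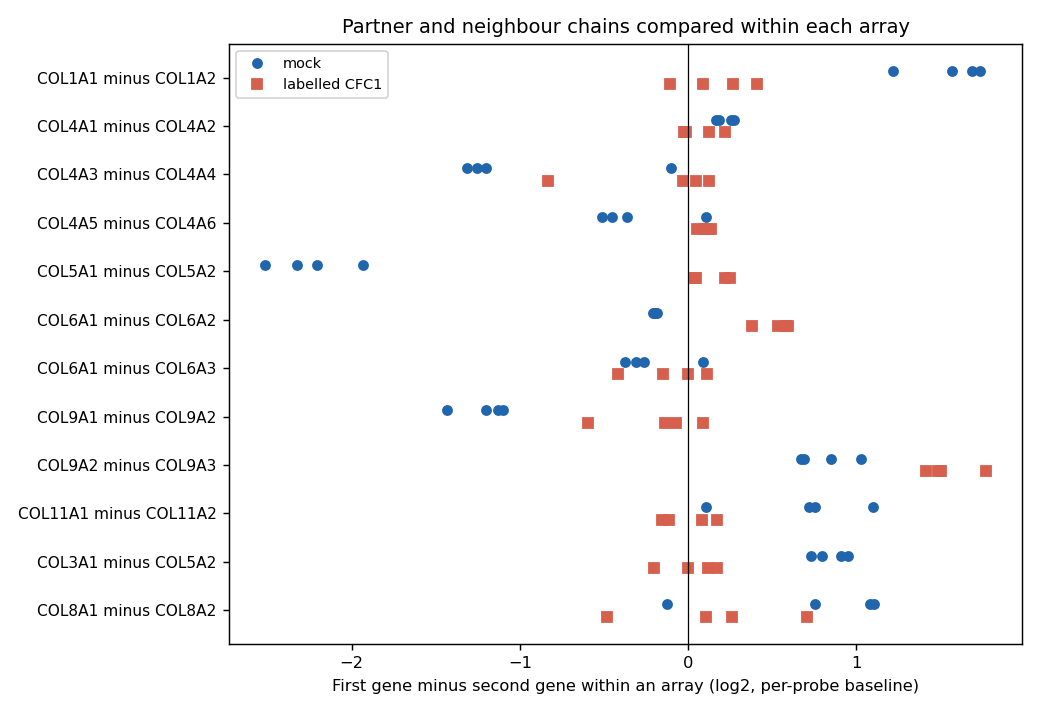
First gene minus second gene within each array (log2, x axis) for the 12 pairs of collagen chains, circles for the 4 mock arrays and squares for the 4 arrays labelled CFC1. The groups are separate for 6 pairs, COL1A1 and COL1A2 among them, and overlap for COL4A1 and COL4A2.

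Genes that modify, export, process, crosslink, bind or cut collagens were divided. Of 89 measured, 28 rose, 27 fell and 34 were not called, with a median of -0.03. The share called in either direction, 55 of 89, stood beside 57.9% of all genes, of which 29.7% were higher and 28.2% lower.

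Chain-modifying enzymes rose more often than they fell. Of 14 hydroxylases, glycosyltransferases and partners, 8 rose (57.1%) and 2 fell (14.3%), with a median of 0.25. P4HA2, a catalytic subunit of prolyl 4-hydroxylase, rose by 3.96 (SE 0.15) and P3H2, a prolyl 3-hydroxylase that acts on type IV chains, by 3.55 (SE 0.07). PLOD1, a lysyl hydroxylase, fell by 1.07 (SE 0.18). Of 11 folding and export genes, 4 rose (36.4%) and 3 fell (27.3%), none by 2-fold. These shares were near the 29.7% higher and 28.2% lower of all genes. The foldase FKBP10 fell by 0.73, and PPIB, cyclophilin B, and KLHL12, an adaptor of procollagen export, rose by 0.56 and 0.44, the KLHL12 call being lost after quantile normalization (0.28, limma adjusted p = 0.178). One of the 2 KLHL12 probes stood at 0.12 and was not called (limma adjusted p = 0.0763).

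Enzymes of propeptide removal and their enhancers fell or were not called. Of 10 measured, 6 fell (60.0%, against 28.2% of all genes) and 4 were not called, with a median of -0.43. The 6 include the C-proteinase enhancers PCOLCE and PCOLCE2, which fell by 1.11 and 0.17. The procollagen N-proteinases ADAMTS2, ADAMTS14 and ADAMTS3 fell by 2.75 (SE 0.14), 2.54 (SE 0.09) and 1.11 (SE 0.08), the last by 1.88 after quantile normalization. These enzymes trim fibrillar procollagens, the class in which 6 of 11 chains fell. A link between the enzymes and the chains was not tested.

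Crosslinking enzymes split, with 4 of 7 higher (57.1%) and 3 lower (42.9%), beside 29.7% higher and 28.2% lower of all genes. LOXL4 and LOXL2, lysyl oxidase homologues, rose by 3.48 (SE 0.43) and 2.98 (SE 0.04). PXDN, peroxidasin, which crosslinks type IV collagen, fell by 1.90 (SE 0.04). COL4A1 and COL4A2 above also fell, while P3H2, which acts on type IV chains, rose. Whether these differences are linked was not tested.

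Of 12 collagen receptors, 4 rose (33.3%) and 2 fell (16.7%), shares near or below those of all genes. The integrin subunits ITGA11 and ITGA10, which bind collagen with the beta 1 subunit, rose by 3.21 (SE 0.10) and 1.54 (SE 0.14), and the receptor kinase DDR2 fell by 1.22 (SE 0.05).

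Of 12 proteins that sit on collagen fibrils, 6 fell, 1 rose and 5 were not called, with a median of -0.63. The small leucine-rich proteoglycans FMOD, BGN and DCN fell by 3.64 (SE 0.08), 1.54 (SE 0.11) and 1.13 (SE 0.13), though 1 of the 2 DCN probes stood at -0.17 and was not called.

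Other components of basement membranes rose more often than they fell. Of 14 laminin chains, nidogens and heparan sulfate proteoglycans, 7 rose and 2 fell, with a median of 0.57. Agrin (AGRN) rose by 3.09 (SE 0.06) and the laminin chain LAMC3 by 2.77 (SE 0.19), with 1 of its 3 probes at 0.87 and not called. Nidogen 2 (NID2) fell by 2.27 (SE 0.15), as the mean of 2 probes of which 1 stood at 0.04. Whether this list differs from the type IV chains was not tested. Of 9 collagen-degrading proteases, 3 fell (33.3%, near the 28.2% of all genes), MMP2 by 0.85, CTSB by 0.73 and MMP9 by 0.38, and 6 were not called. The MMP9 call was lost after quantile normalization (-0.08, limma adjusted p = 0.486).

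**Figure D5:**
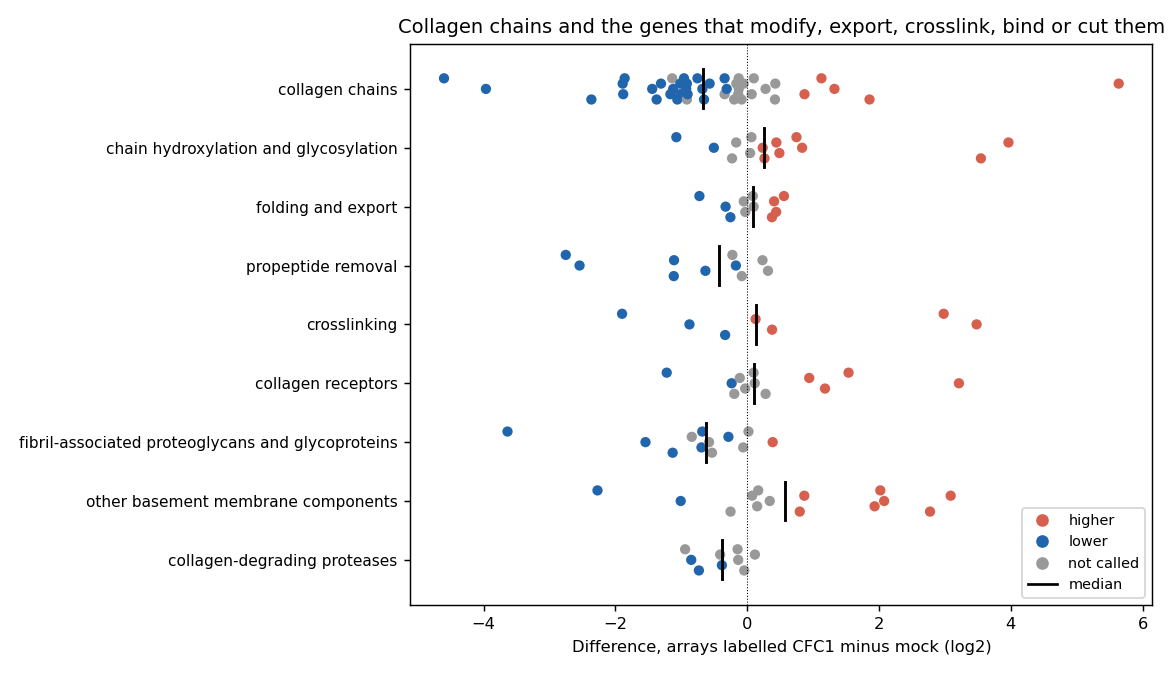
Difference of each gene (log2, x axis) for the 44 collagen chains and 8 lists of genes that act on them or lie beside them, with the median of each list as a bar. Medians are lowest for collagen chains (-0.67) and fibril-associated proteins (-0.63) and highest for the other basement membrane components (0.57).

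Markers of other cell types were counted beside the collagens, where 28.2% of all genes were lower and 29.7% higher. Of 13 fibroblast and mural markers that are not collagens, 7 fell (53.8%) and 3 rose (23.1%). Their mean log2 value ran from 0.37 to 0.71 over the mock arrays and from -0.30 to -0.26 over the arrays labelled CFC1. These means weigh most the 3 markers with the largest falls, given next, and the median difference of the list was -0.665. TCF21, not called, read 2.94 in mock replicate 1 and -0.24 to 0.24 in the other mock arrays. RGS5 fell by 3.83, PDGFRA by 2.78 and PI16 by 2.06, while FBLN1 rose by 0.58, LOXL1 by 0.38 and THY1 by 0.34. Of 7 Schwann and glial markers 5 fell (71.4%, means of 0.24 to 0.56 against -0.38 to 0.06), S100B by 1.35, FABP7 by 1.17 and GFAP by 0.90. Of 8 endothelial markers 3 fell (37.5%), KDR by 3.08, TEK by 2.89 and EGFL7 by 0.28, and 5 (PECAM1, CDH5, VWF, TIE1 and ERG) were not called. The list's median was -0.16, and its means of 0.69 to 0.98 in mock against -0.14 to 0.17 rest on KDR and TEK, since the other 6 markers lay between -0.28 and 0.08. The FABP7 call held without mock replicate 3 but was lost when any of the other 7 arrays was left out (limma adjusted p 0.0511 to 0.0774), and that of EGFL7 after quantile normalization (-0.04, limma adjusted p = 0.647). Not all probes were called for S100B and GFAP, whose least changed probes stood at -0.15 and -0.50.

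Sympathetic neuroblast markers define the labelled cell type. Of 9 measured, 7 fell (77.8%), among them CHGB by 2.48, ISL1 by 2.18 and GATA2 by 1.66, or by 1.08 for GATA2 after quantile normalization. PHOX2A (0.02, limma adjusted p = 0.963) and TH (0.07, limma adjusted p = 0.79) were not called. The means of the list ran from 0.91 to 0.99 in mock and from -0.10 to 0.05 in the others. Because the values are differences from a baseline, presence of these markers cannot be read from them. The part of cell makeup in the collagen differences was not tested.

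To set each collagen beside its position, the 10 measured genes on each side of every collagen, other collagens left out, were examined. The median of the 20 neighbours ran from -0.41 to 1.06 over the 44 genes. COL7A1 had the highest, with 17 of 20 neighbours higher and 3 not called. Its own rise of 1.13 lay beside a neighbour median of 1.06. COL6A1 and COL6A2 lay among neighbours of which 12 of 20 fell (median -0.40). COL2A1 rose by 5.64 among neighbours with a median of -0.02 and a maximum of 2.90, and COL6A5 and COL6A6 fell beyond the lowest of their neighbours, -3.48. In 10 of the 29 called collagens the difference lay outside the range of all 20 neighbours, and in 19 it had the sign of their median. These counts have no share over all genes beside them, and some collagens, such as COL4A1 and COL4A2, have the same neighbours. The part of gene position or copy number was not tested.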

How the data were processed

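RNA of 4 mock arrays and 4 arrays labelled CFC1 was labelled with Cyanine3 for one-color Agilent arrays, per the labels' protocols. The deposited table holds log2 values relative to a baseline per probe; the base of the logarithm is not stated and was read as 2. How spots were extracted, background-corrected and scaled is not stated in the labels. At most 1 array per probe is exactly 0. Flags for dim or saturated spots were not used here, and 8 arrays limit the precision.

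After 140 of 50739 spots, the controls, were left out, 31993 probes had 1 symbol and 18606 had none in the annotation used; none had several. Symbols were updated to RefSeq (GRCh38.p14), and probes of a gene were averaged, giving 21524 genes. Of the 66 collagen probes, 57 were matched by accession and 9 by symbol.

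Groups were compared with limma 3.58.1 in R 4.3.3 (lmFit, eBayes without a trend, equal weights, all 8 arrays, no replicate block), two-sided, Benjamini-Hochberg adjusted over all genes at 0.05. Single values were compared by exact permutation in Python 3.11.15. The fit was tested on simulated data. No set test was run. In classes of collagens, values by array are given for up to 4 genes (2 in smaller classes) with the largest called differences and no overlap, and up to 3 called genes are named from each list; other list genes were named after their values were seen. Values by array of other genes were chosen after their values were seen. Members and lists were chosen with earlier results of these data known. Alternatives were a replicate block, quantile normalization, median centring, E1A control spots, a natural logarithm, array weights, a trended robust prior, unmoderated variances, every probe, and leaving out each array.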

Additional observations from a re-analysis of the deposited data

Results flagged for a closer look

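In 88 groups of 4 arrays (44 collagens, both groups), the gap between the highest or lowest array and its nearest neighbour, over the range, was compared with Dixon's 95% critical value. It was exceeded in 7, and chance flags about 1 in 20 groups. Mock replicate 4 was the array in 4 of the 7. It was the highest mock array for COL3A1 (2.169, nearest 2.056), COL23A1 (1.11, nearest 0.954) and COL8A1 (0.253, nearest -0.163), and the lowest for COL11A1 (0.002, nearest 0.804). Mock replicate 3 was the highest for COL28A1 (0.156, nearest 0.01). In the arrays labelled CFC1, replicate 1 was the lowest for COL5A1 (0.218, nearest 0.333) and replicate 2 the highest for COL12A1 (1.14, nearest -0.517).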

How the results depend on the processing

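Of the 29 called collagens, 18 kept direction and call under all 17 alternatives, which include leaving out each of the 8 arrays. The natural logarithm rescales all values alike, so it cannot change a call. Of the 29, 16 have 1 probe, for which counting every probe tests no further probe. Among the 13 with several probes, 3 kept their call in that count. Of the 15 not called, 11 stayed so under all 17. Over single arrays left out, 22 to 24 collagens were lower and 5 to 6 higher, 13 to 16 were at least 2-fold lower and 4 at least 2-fold higher. In that range 3 to 4 basement membrane and 6 to 7 fibrillar genes were lower. Quantile normalization gave 8 at least 2-fold lower in place of 14, 0 FACITs higher, and 7 differing pairs in place of 0; limma on pair differences, added after seeing the data, gave 9. Counting genes only if every probe passed gave 3 higher, 2 of them at least 2-fold, with 1 fibrillar gene and 0 FACITs higher and 2 FACITs lower. Its construction, the probe nearest 0, also turned the values of COL5A1 (-0.443), COL27A1 (0.12), COL9A2 (0.224), COL16A1 (0.221) and NID2 (0.039). The cause of the other changes was not tested. Arrays set to E1A control spots moved the median of all genes from -0.086 to 0.016; COL11A2 (-0.24, limma adjusted p = 0.0711), COL4A4 (-0.82, 0.0618) and COL28A1 (-0.21, 0.212) lost their calls there and COL26A1 gained one (0.52, 0.0246). With a natural logarithm every difference would be larger.

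The replicate numbers were not taken as pairing: deviations of same-numbered arrays correlated over genes at 0.0741 to 0.199, not all above 0.1. Differently numbered arrays correlated lower, at -0.14 to 0.0683, and all 8 arrays correlated best with their own number. The fit reported above leaves such a replicate effect out. With the replicate block 29 collagens were called, 27 of them the same; COL4A4 (-0.93, limma adjusted p = 0.114) and COL28A1 (-0.31, 0.0965) were lost, and COL4A5 (-0.16, 0.0333) and COL21A1 (-0.20, 0.0313) gained. With 1 array left out, the exact test of pairs cannot pass adjustment and was not run.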
